A study of Mus musculus with 3 samples.

Results

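Epicardial mesothelial cells form the single-layered epithelium that covers the outer surface of the heart. Here they are cells of dissociated mouse hearts chosen by the detection of 12 genes, called rule genes: a member has 1 or more unique molecular identifiers (UMIs, counted RNA molecules) in at least 3 of Muc16, Msln, Upk3b, Wt1, Lrrn4, Krt19, Gpm6a, Rspo1, Cgn, Stk26, Gpr39 and Dpp4. The rule held for 581 of 27497 deposited cells. Members numbered 85 of 9510 in the library titled Isotype Control, 177 of 6388 in PD1/PEM and 319 of 11599 in PDL1/ATZ. Because the rule used the counts of these 12 genes, their levels and the number of members are given as descriptions.

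The hearts came from NOD/SCID mice, a strain without functional T and B lymphocytes, that received pembrolizumab (an antibody to PD-1), atezolizumab (an antibody to PD-L1) or an isotype control antibody on days 0 and 7. Hearts were taken on day 14, and 3 hearts were pooled into 1 droplet library for each group, so no group has a replicate and no test of a difference between groups exists. The treatment tags of 2 libraries contradict their titles: PD1/PEM carries the tag Atezolizumab and PDL1/ATZ carries Pembrolizumab. The libraries are therefore called by title, and no value is assigned to an antibody. Cells of 1 library are not replicates either. All intervals are exact 95% intervals (Poisson for a level, Clopper-Pearson for a share, conditional binomial for a ratio) and cover counting error only.

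The epicardium arises from the proepicardium, spreads over the embryonic heart and, through epithelial-to-mesenchymal transition, gives rise to cardiac fibroblasts and mural cells. Wt1, Tbx18 and Tcf21 are its classical transcription factors, and the retinoic acid enzyme Aldh1a2 is a further marker. In the adult it is a thin mesothelium that shares with pleura and peritoneum a coat of the large mucin Muc16, its binding partner mesothelin (Msln), uroplakins, simple-epithelium keratins and a basement membrane.

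The PDL1/ATZ library stood apart from the others. Its median depth was 1010 UMIs per cell against 1532 and 2014 in Isotype Control and PD1/PEM, and its median share of mitochondrially encoded UMIs was 8.05% against 27.1% and 26.9%. Isotype Control and PD1/PEM had 23 cell barcodes in common and PDL1/ATZ had 0 in common with either, while 0 barcodes were shared among members. Members were deeper than the other cells of their library, with medians of 2540 against 1527 UMIs in Isotype Control, 3330 against 1983 in PD1/PEM and 2073 against 998 in PDL1/ATZ. Depth alone raises the chance of detecting 3 genes, so each cell was also thinned to 700 UMIs, which left 8, 16 and 88 cells that still met the rule in the same order of libraries.

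Members made up 0.894% of Isotype Control cells (interval 0.714% to 1.10%), 2.77% of PD1/PEM cells (2.38% to 3.20%) and 2.75% of PDL1/ATZ cells (2.46% to 3.06%). With 5 or more rule genes the order was different: 5, 20 and 79 cells, or 0.0526% (0.0171% to 0.123%), 0.313% (0.191% to 0.483%) and 0.681% (0.540% to 0.848%). PDL1/ATZ thus held 54.9% of all members but 76.0% of those with 5 or more. The rule's threshold cut through a steep slope: in PDL1/ATZ 695 cells had exactly 2 rule genes and fell outside, 191 had exactly 3 and 49 had exactly 4. Cells with exactly 3 made up 80.0% of members in Isotype Control, 74.0% in PD1/PEM and 59.9% in PDL1/ATZ.

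Among the rule genes, Gpm6a was the most often detected in PDL1/ATZ members and Wt1 in those of Isotype Control and PD1/PEM. Muc16, the membrane mucin known in the clinic as CA125 (chromosome 9, 18495455 to 18674530, minus strand, in GENCODE M21 on GRCm38), had 605 CPM (its UMIs as a share of all UMIs of the cells concerned, on the usual CPM scale) in PDL1/ATZ members and 48.3 in the other cells of that library. Its levels were 196 against 14.7 CPM in Isotype Control and 239 against 22.5 CPM in PD1/PEM. Gpm6a, a neuronal-type membrane glycoprotein (chromosome 8, 54954843 to 55060871), stood at 665 against 81.5 CPM in PDL1/ATZ, and a UMI was found in 68.0% of those members. The mucin and Gpm6a were detected together in 58 of the 79 PDL1/ATZ cells with 5 or more rule genes.

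Wt1, the zinc-finger transcription factor of the embryonic epicardium (chromosome 2, 105126529 to 105173616), was found in 65.9%, 73.5% and 59.6% of members of Isotype Control, PD1/PEM and PDL1/ATZ. It was also found in 10.4%, 22.8% and 8.81% of the other cells, the highest such share of the 12 genes in Isotype Control and PD1/PEM. Msln (chromosome 17, 25748613 to 25754378) and Upk3b, a uroplakin of the apical membrane (chromosome 5, 136038496 to 136046487), were found less often in PDL1/ATZ members. Msln was found in 30.6%, 23.2% and 14.1% of members and Upk3b in 45.9%, 37.9% and 26.3%. These shares depend on which other rule genes admit a cell: outside the members the level of Msln was highest in PDL1/ATZ, at 8.40, 9.61 and 13.2 CPM, while that of Upk3b was lowest there, at 27.4, 24.2 and 19.4 CPM. The peptidase Dpp4 (CD26) and the zinc-sensing receptor Gpr39 were found most often in PDL1/ATZ, in 53.6% and 41.7% of members. Cgn (cingulin, a tight junction plaque protein), the Wnt agonist Rspo1 and the kinase Stk26 were found in 13.2%, 21.9% and 17.9% of PDL1/ATZ members. The keratin Krt19 and the leucine-rich repeat protein Lrrn4 were found in 7.52% and 5.64%. Muc16, Gpm6a, Dpp4 and Gpr39, found most often in PDL1/ATZ members, span 179, 106, 82.2 and 197 kb. Msln, Upk3b and Lrrn4, found least often there, span 5.77, 7.99 and 12.6 kb. Wt1 went the other way: it spans 47.1 kb and was found least often in PDL1/ATZ. Rspo1 and Cgn, shorter at 22.7 and 26.4 kb, were found most often there. Whether gene length or the use of intron reads affected these shares was not tested.

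Most molecules of the rule genes lay outside the members. Of the Muc16 UMIs of PDL1/ATZ, 61.4% were in other cells, and for Wt1 this share was 78.7%. The lowest share of the 12 genes in that library was 54.6%, for Cgn. Whether these UMIs came from free RNA picked up by droplets, from missed members or from another source was not tested. These counts do not separate such sources, and the shares of cells with a UMI carry the same limit.

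**Figure D1:**
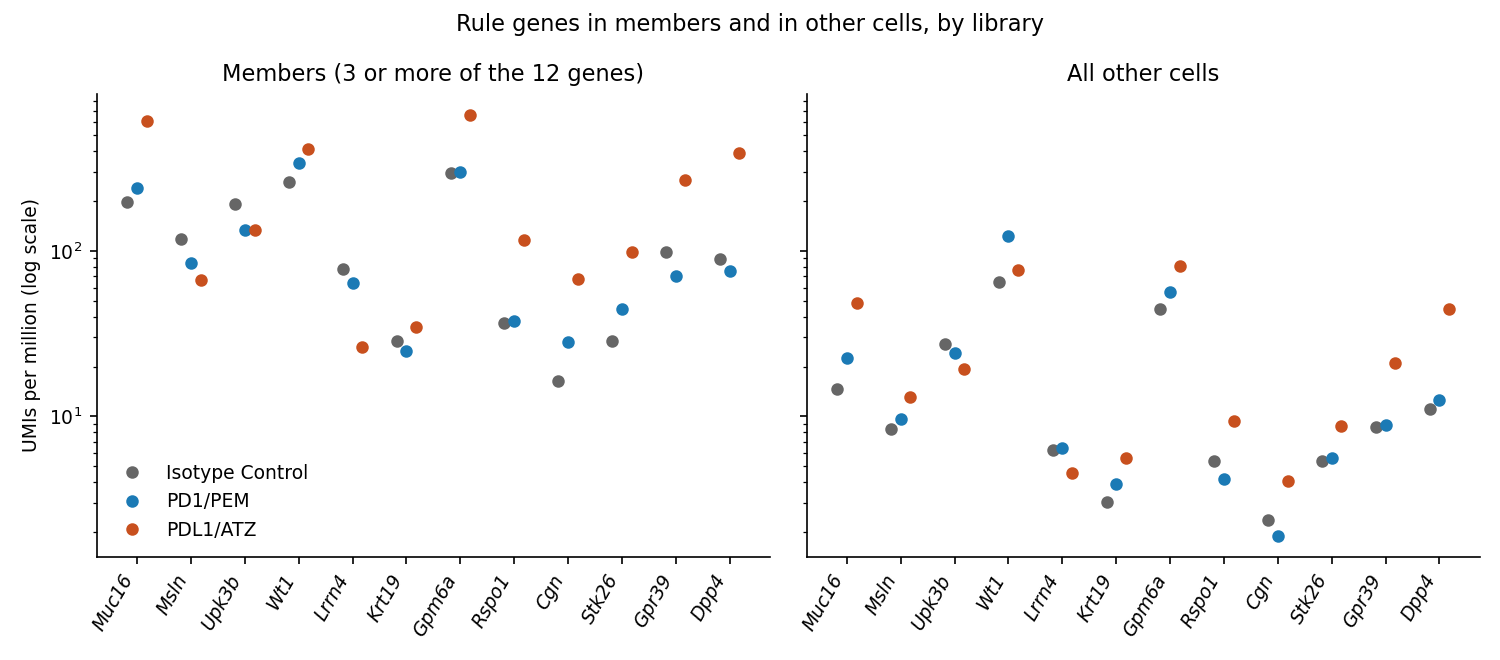
Summed level of each rule gene in CPM (log axis) in members, left, and in all other cells, right, with 1 point per library. In members Muc16 reached 605 in PDL1/ATZ against 196 and 239 in the other libraries, while Msln and Lrrn4 were lowest in PDL1/ATZ.

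The promoters of 4 genes are shown, 250 bases before the annotated start, from the RefSeq table on GRCm38.p6. Muc16, Upk3b and Lrrn4 are rule genes and Vtcn1 is the leading gene described below that encodes a checkpoint ligand. Capitals mark matches, on either strand, to 3 motifs. The first is GGAATG, the core bound by TEAD factors of the Hippo pathway. The second, AGATAA, is a core of GATA factors. The third is the AP-1 site TGACTCA.
Muc16 (chr9:18674604-18674853, minus strand): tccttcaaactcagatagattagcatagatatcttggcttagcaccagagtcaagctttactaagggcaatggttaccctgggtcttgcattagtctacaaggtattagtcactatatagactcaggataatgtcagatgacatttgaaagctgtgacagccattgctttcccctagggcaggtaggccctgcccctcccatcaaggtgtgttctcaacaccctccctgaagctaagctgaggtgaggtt
Upk3b (chr5:136038246-136038495, plus strand): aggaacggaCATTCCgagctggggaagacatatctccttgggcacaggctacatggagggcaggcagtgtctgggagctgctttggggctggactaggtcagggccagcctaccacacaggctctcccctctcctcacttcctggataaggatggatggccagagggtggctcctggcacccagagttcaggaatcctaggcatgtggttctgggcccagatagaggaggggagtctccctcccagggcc
Lrrn4 (chr2:132880863-132881112, minus strand): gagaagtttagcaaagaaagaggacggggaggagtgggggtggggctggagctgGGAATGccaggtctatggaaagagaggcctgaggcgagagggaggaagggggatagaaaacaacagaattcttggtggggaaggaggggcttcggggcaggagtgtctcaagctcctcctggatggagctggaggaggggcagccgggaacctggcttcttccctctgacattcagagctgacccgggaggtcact
Vtcn1 (chr3:100825209-100825458, plus strand): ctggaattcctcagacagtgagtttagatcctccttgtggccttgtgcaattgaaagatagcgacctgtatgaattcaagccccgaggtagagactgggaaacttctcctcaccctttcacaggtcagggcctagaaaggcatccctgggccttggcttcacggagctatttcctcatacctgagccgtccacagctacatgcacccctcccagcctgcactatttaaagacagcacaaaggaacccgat
The Upk3b and Lrrn4 windows each hold GGAATG, Upk3b on the opposite strand, and the Muc16 and Vtcn1 windows hold none of the 3 motifs. Of 12 rule genes, 9 had a promoter in the table, and GGAATG was found in 4 of them (Dpp4, Gpm6a, Lrrn4, Upk3b), that is in 4 of their 10 promoters, while 12.6% of all 32851 promoters of the same length hold it. Among the 15 leading genes described below it was found in 3 of 19 promoters. AGATAA was found in 1 of the 10 promoters of rule genes and TGACTCA in 1, beside 9.99% and 4.46% of all promoters. Among the leading genes AGATAA was found in 2 and TGACTCA in 3 of 19 promoters. These are matches of letters, not binding sites.

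Genes that the rule did not use were then read, as a description. Their lists were chosen with earlier results of these data known, so they are no independent check of the label. A list of 36 mesothelial surface and secreted genes, none of them a rule gene, was summed in cells grouped by the number of rule genes detected. In PDL1/ATZ its level was flat below the threshold, at 3940 CPM (3899 to 3981) with 0 rule genes, 3994 (3934 to 4055) with 1 and 4094 (3980 to 4210) with 2. It was 4750 (4533 to 4974) with exactly 3, 6273 (5838 to 6732) with 4, 10086 (9496 to 10703) with 5, 11462 (10492 to 12497) with 6 and 12156 (11344 to 13010) with 7 or more. Cells just inside the threshold were thus close to those just outside, and the level more than doubled only with 5 or more rule genes, where it was 2.77 times (2.66 to 2.89) that of cells with 0 to 2. The same order held in PD1/PEM, with 3124 CPM (3095 to 3153) at 0 to 2, 3459 (3288 to 3636) at 3 and 8151 (7531 to 8808) at 5 or more. In Isotype Control the levels were 3065 (3039 to 3092), 3816 (3539 to 4109) and 6798 (5549 to 8244).

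**Figure D2:**
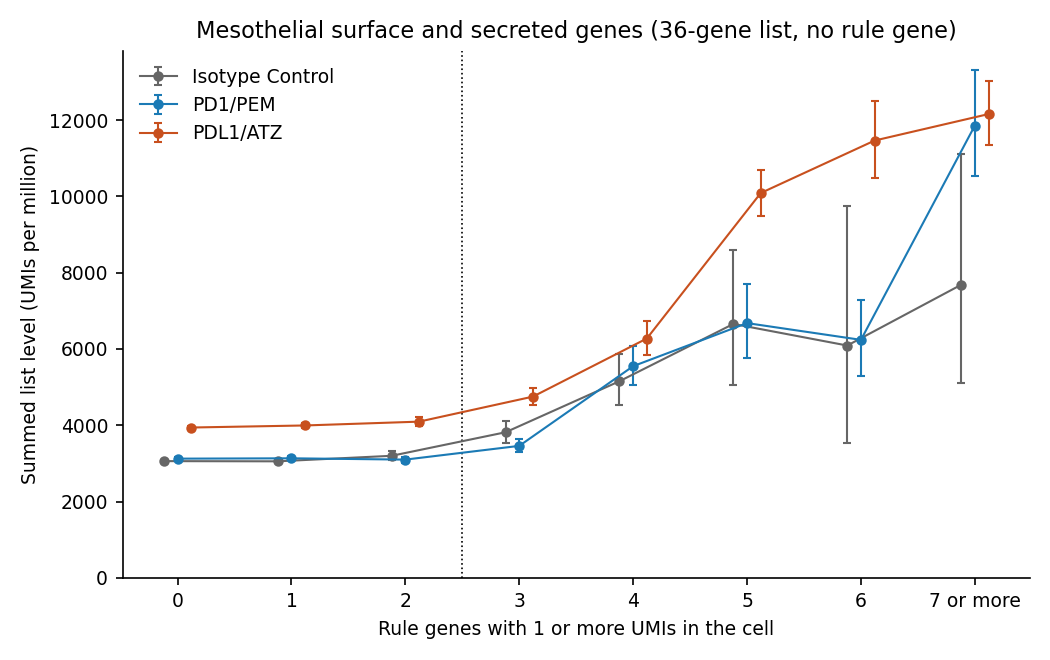
Summed level of the 36-gene mesothelial list in CPM against the number of rule genes detected per cell, for each library, with exact 95% Poisson intervals as bars and the rule's threshold as a dotted line. In PDL1/ATZ the level was 3940 with 0 rule genes and reached 12156 with 7 or more rule genes.

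Clustering of the PDL1/ATZ cells without the rule genes gave 12 clusters and placed the members in part together. The cluster numbered 11 held 135 cells, of which 116 (85.9%) were members. It held 68 of the 79 members with 5 or more rule genes but only 30 of the 191 with exactly 3. Its leading genes, with the rule genes read again, were Muc16, Cgn, Gpr39, Stk26, Vtcn1, Cdh3, Kcnd2, Dpp4, Scel and Rspo1. The 36-gene list stood at 10587 CPM (10223 to 10960) in its members and at 8005 (7034 to 9073) in its 19 cells below the threshold.

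The other 203 members were spread over the 11 remaining clusters, with 84 in cluster 3, led by Tmem163, Nos1 and Mhrt. In these 203 cells the list stood at 4300 CPM (4104 to 4502), near the 3960 (3928 to 3993) of all cells that were neither members nor in cluster 11. The median log2 ratio of the list's measured genes to other cells was -0.0064 in them, beside 0.97 over all PDL1/ATZ members. Of the 33 PDL1/ATZ members marked as doublets by rank, 32 lay outside cluster 11. The list genes took part in the clustering, so the levels in and outside cluster 11 describe the split and test nothing. Without that split, cells with exactly 3 rule genes stood at 4750 CPM and those with 5 or more at 11005, against 3969 in non-members. Values below are given for the 319 PDL1/ATZ members and, where stated, for the 79 with 5 or more rule genes, a cut set with these values known.

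**Figure D3:**
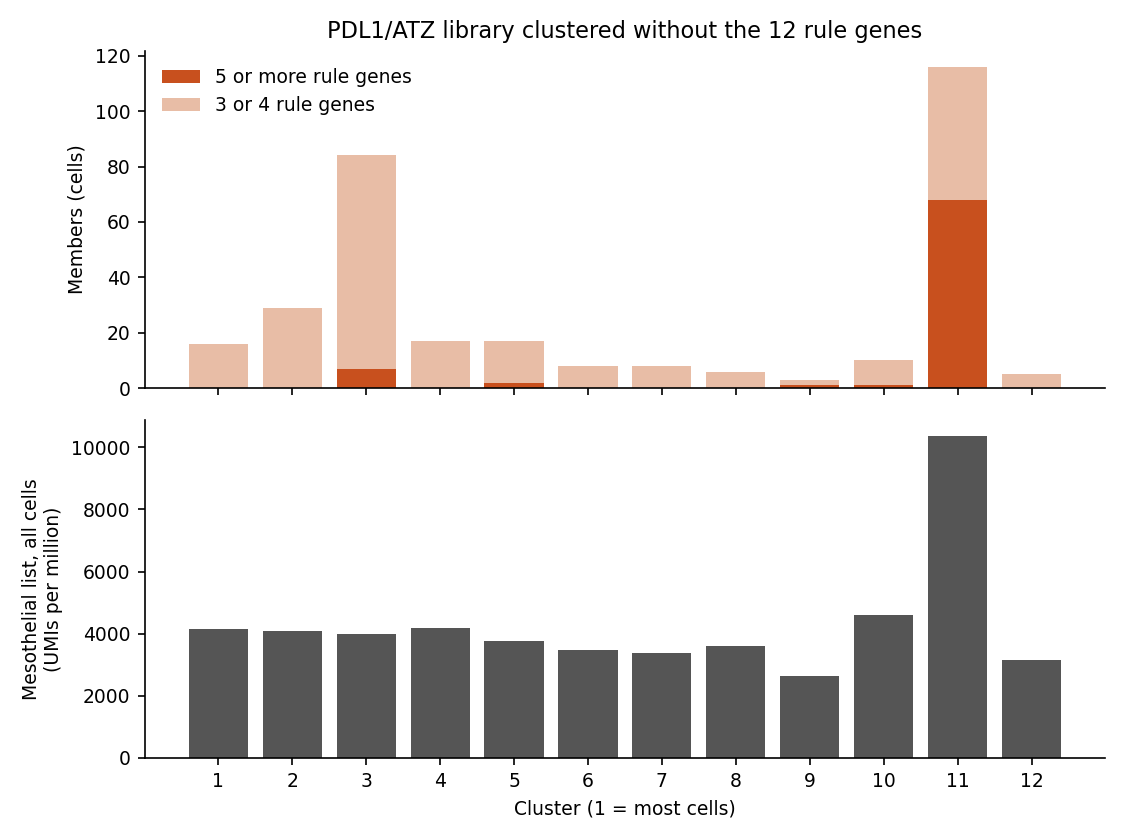
Members per cluster of the PDL1/ATZ library, by number of rule genes (top, cells), and level of the 36-gene mesothelial list over all cells of the cluster (bottom, CPM). Cluster 11 held 116 members, 68 of them with 5 or more rule genes, and had a list level of 10349 over all its cells.

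Against all other PDL1/ATZ cells, 336 of 9883 genes with at least 10 observed or expected UMIs were 2-fold or more higher in members (3.4%) and 179 were 2-fold or more lower (1.81%), rule genes left out. With 5 or more rule genes these counts were 446 of 5225 (8.54%) and 243 of 5225 (4.65%). Of the 9883 genes, 679 passed the minimum only through the members, and of the 5225 genes 771 did. The 15 highest genes, ranked by the lower bound of the ratio, were Gstp2, Vtcn1, Scel, Kcnd2, Cdh3, Upk1b, Rbfox1, Slc26a3, Grip1, Nkain4, Zdbf2, Ezr, Mbp, Slc39a8 and Wdr17. Gstp2, Vtcn1, Scel, Cdh3, Slc26a3, Nkain4 and Zdbf2 were among the genes that passed the minimum only through the members, so they had to differ.

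Of these 15 genes, Upk1b, Cdh3 and Ezr act at the cell surface or its junctions. Upk1b, a tetraspanin that pairs with uroplakin 3b in the urothelial membrane (chromosome 16, 38773184 to 38800328), stood at 99.5 CPM in members and 13.9 in other PDL1/ATZ cells, a ratio of 7.18 (5.40 to 9.44). In PD1/PEM it stood at 37.8 against 6.36 CPM, and in Isotype Control members had 1 UMI. Cdh3, the epithelial P-cadherin (chromosome 8, 106510891 to 106557297), was 8.25-fold higher (5.43 to 12.3) in PDL1/ATZ members, at 49.8 against 6.03 CPM. In PD1/PEM members Cdh3 had 7 UMIs, or 11.5 against 2.97 CPM. Ezr (ezrin, which ties microvilli to actin) was 5.25-fold higher (4.31 to 6.35), at 188 against 35.9 CPM in PDL1/ATZ and 87.2 against 43.9 in PD1/PEM, but at 40.8 against 47.1 in Isotype Control. The cornified-envelope protein sciellin, Scel, stood at 59.5 against 6.80 CPM in PDL1/ATZ.

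Kcnd2, Slc26a3 and Slc39a8 encode a channel and transporters. Kcnd2, the Kv4.2 potassium channel, had the most molecules, 900 UMIs or 1244 CPM in PDL1/ATZ members against 211 in other cells, a ratio of 5.91 (5.48 to 6.37). The other libraries differed little from their own cells at this gene, with 441 against 378 CPM in Isotype Control and 569 against 409 in PD1/PEM, and with 5 or more rule genes the levels there were 1254 and 1186. Slc26a3, a chloride and bicarbonate exchanger, stood at 73.3 against 11.4 CPM in PDL1/ATZ, 23.0 against 4.10 in PD1/PEM and 16.3 against 4.38 in Isotype Control. The chloride channel Cftr, named after its value was seen, stood at 41.5 against 8.95 CPM in PDL1/ATZ. Slc39a8, an importer of zinc and manganese, was 5.71-fold higher (4.04 to 7.95) in PDL1/ATZ, and its 11 UMIs in Isotype Control members made 44.9 against 9.55 CPM.

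Vtcn1 encodes B7-H4, an inhibitory ligand of T cells in the family of PD-L1 (chromosome 3, 100825459 to 100896922). In PDL1/ATZ it stood at 48.4 CPM in members and 5.20 in other cells, a ratio of 9.30 (6.04 to 14.1). With 5 or more rule genes it reached 113 CPM from 25 UMIs, a ratio of 21.7 (13.2 to 34.5). Members had 1 UMI in Isotype Control and 3 in PD1/PEM, and members with 5 or more rule genes had 0 UMIs in both. These 5 and 20 cells hold 15152 and 78397 UMIs in all, so a level up to 198 and 38.3 CPM (3 counts) would go unseen. The level of PDL1/ATZ would therefore have been visible at the PD1/PEM depth and not at that of Isotype Control.

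Gstp2, a glutathione transferase whose reads cannot be told from those of near-identical Gstp1 with certainty, was first in the ranking at 47.0 against 4.85 CPM. It had 0 UMIs in members of the other libraries, and their other cells were also near 0, at 0.426 and 0.212 CPM. Whether the 3 libraries were counted with the same annotation and settings, such as the use of intron reads, is not given in the sources used here, so a difference between libraries and a difference in counting cannot be told apart. The remaining leading genes were the splicing factor Rbfox1 (1052 against 197 CPM), the synaptic scaffold Grip1 (342 against 64.9), Wdr17 (531 against 120), Mbp (137 against 26.4), Nkain4 (71.9 against 11.4) and Zdbf2 (47.0 against 7.14). Rbfox1 overlaps another annotated gene on its own strand, and Grip1, Ezr, Nkain4, Slc39a8, Wdr17, Plxna4 and Sox6 are among the named genes that overlap a gene on the opposite strand. How the authors' counting used strand and overlaps is not given in the sources used here, so part of their UMIs could belong to the neighbour. Counted without a minimum, 9 of the 15 were 2-fold or more higher in members of PD1/PEM and 6 of the 15 in Isotype Control. Among genes that met the minimum, 1.5% of 7605 and 1.73% of 4326 were, so these shares are not like for like. The median log2 ratio of all genes was 0.063 in Isotype Control and 0.027 in PD1/PEM. Ratios in these 2 libraries rest on few molecules: 11 of the 15 genes in PD1/PEM and 6 in Isotype Control had 10 or more UMIs in members. The genes were chosen in PDL1/ATZ and not in these libraries.

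**Figure D4:**
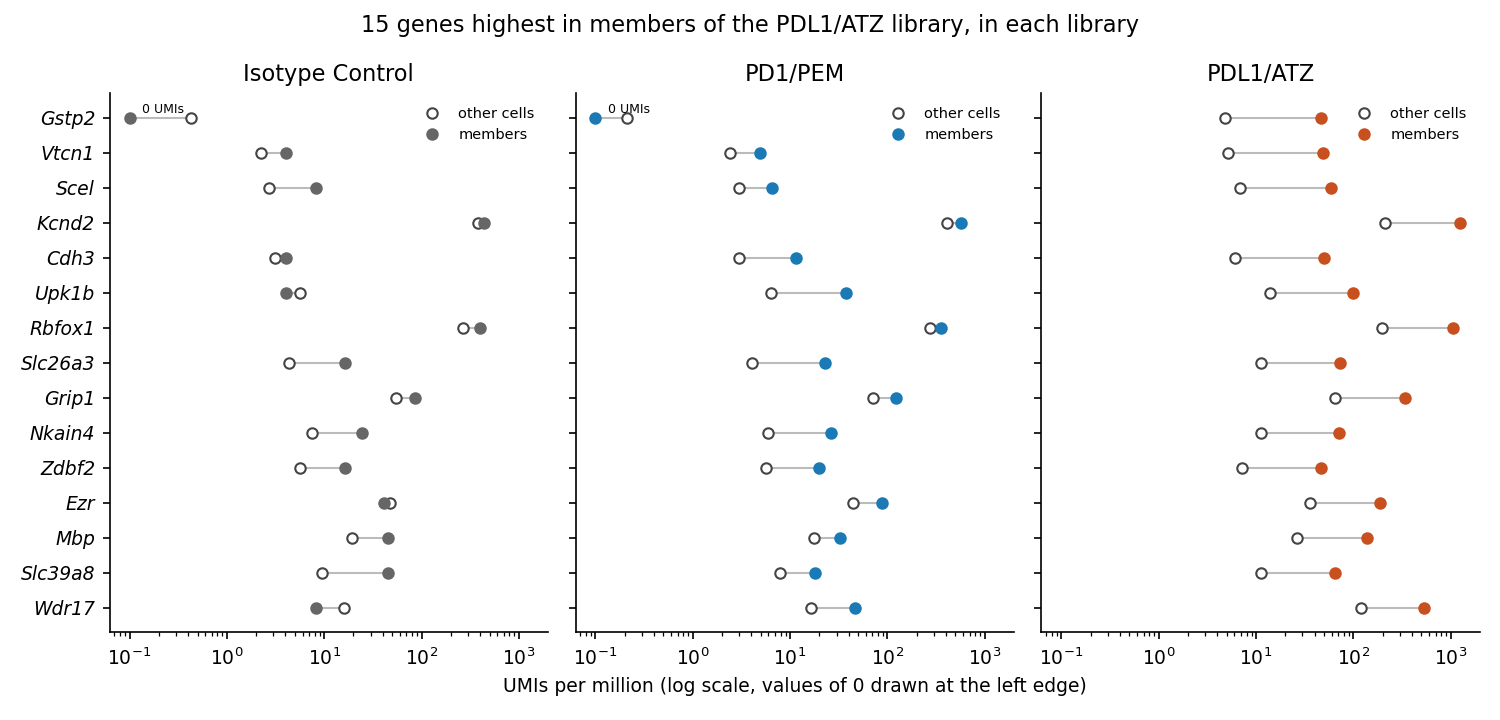
Level of the 15 leading genes in CPM (log axis) in members (filled) and in other cells (open) of each library. The distance is wide for every gene in PDL1/ATZ, where the genes were chosen, and narrow for Kcnd2 in Isotype Control (441 against 378).

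The 6 lowest genes were of mixed kinds. Mir133a-1hg, host of a muscle microRNA, had 1 UMI in PDL1/ATZ members, a ratio of 0.0973 (0.00245 to 0.548). Tmem182, a muscle membrane protein, had 3 UMIs (ratio 0.197, 0.0405 to 0.582) and the neuronal adhesion protein Lrfn2 had 1 (0.0963, 0.00243 to 0.543). Eef1g, a translation elongation factor subunit, stood at 58.1 against 137 CPM, Lgals3bp at 8.30 against 34.1 and Uchl5 at 5.53 against 23.5. In the other libraries these 6 genes did not share a direction, with 3 of 6 below a ratio of 1 in Isotype Control and 5 of 6 in PD1/PEM.

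Within the 36-gene mesothelial list, 26 genes were measured in the 79 PDL1/ATZ members with 5 or more rule genes, and 15 were 2-fold or more higher and 1 lower. Of the 15, 9 passed the minimum only through the members and so had to differ, Krt18, Krt7, Pdpn and Ildr2 among them. Among the 17 genes that passed otherwise, 6 were higher, beside 8.54% of all genes. That share still includes genes that passed only through the members, so the 2 are not like for like. The median log2 ratio of the 26 was 1.72, beside 0.089 over all genes measured. The 9 genes that passed only through the members raise this median, and 771 of all 5225 genes passed in that way. No median over the 17 other genes was computed. The most abundant were the axon guidance receptor Plxna4 at 2718 against 393 CPM (ratio 6.93, 6.36 to 7.53) and the heparan sulfate endosulfatase Sulf1 at 2515 against 292 (8.62, 7.88 to 9.42). Simple-epithelium keratins were present at low levels: Krt18 at 54.2 against 3.33 CPM and Krt7 at 45.2 against 5.48. Podoplanin, Pdpn, stood at 117 against 17.0 CPM, the matrix protein Efemp1 at 406 against 55.5, Ildr2 at 244 against 21.8 and the growth factor binder Igfbp5 at 885 against 273. Clu (clusterin) was the 1 lower gene, at 94.8 against 254 CPM. In PD1/PEM members with 5 or more rule genes, 12 of 19 measured genes of the list were 2-fold or more higher and 0 lower, beside 10.4% and 4.05% of 1581 genes measured there. Of the 12, 6 passed only through the members. Krt18 was at 128 against 1.98 CPM and Sulf1 at 867 against 224 in that library.

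Detection at equal depth showed the same order for the abundant genes. After thinning to 700 UMIs, Plxna4 was found in 76.0% (65.0% to 84.9%) of PDL1/ATZ members with 5 or more rule genes. It was found in 21.6% of other cells and in 23.3% of endothelial-rule cells, non-members with 4 or more of 12 endothelial genes. Before thinning the first of these shares were 94.9% and 33.3%, at median depths of 2826 and 998 UMIs. Kcnd2 was found in 67.1% (55.6% to 77.3%), 11.9% and 11.4%, and Rbfox1 in 54.4% (42.8% to 65.7%), 10.5% and 10.7%. Endothelial-rule cells made up 53.2% of non-members, so their likeness to all non-members is in part built in. Their rule was permissive: the endothelial list stood at 5799 CPM in them and at 4842 in all non-members.

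Of 28 epicardial transcription factors, 14 were measured with 5 or more rule genes and 5 were 2-fold or more higher and 0 lower, beside 8.54% and 4.65% of all genes. Of the 5, Bnc1 and Tbx18 passed the minimum only through the members, and 3 of the 12 other genes measured were higher. Bnc1 (basonuclin, an epithelial zinc-finger protein) stood at 63.2 against 2.50 CPM from 14 UMIs, a ratio of 25.3 (12.6 to 48.1). Its relative Bnc2 stood at 560 against 68.2 CPM, Tbx18 at 117 against 20.04, Sox6 at 957 against 172 and the homeodomain factor Meis2 at 1012 against 260. Gata4 and Gata6, heart-forming zinc-finger factors, had ratios of 1.92 (1.41 to 2.56) and 1.65 (1.11 to 2.36). Tbx20, a T-box factor of heart muscle and endocardium, stood at 172 against 257 CPM. In PD1/PEM members with 5 or more rule genes, Bnc2 stood at 204 against 34.1 and Sox6 at 689 against 248 CPM, while Tbx18 had 1 UMI and Bnc1 0.

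Epithelial junction and polarity genes gave 5 higher and 2 lower of 20 measured, beside 8.54% and 4.65% of all genes. All but Cdh11 of the 5 passed the minimum only through the members, so they had to differ, and 1 of the 16 other genes measured was higher. Besides Cdh3 the higher ones were Cdh11 (623 against 85.2 CPM), the polarity proteins Pard6b (45.2 against 2.08) and Patj (90.3 against 26.1), and the adhesion receptor Cxadr (76.8 against 18.2). The lower ones were N-cadherin, Cdh2, at 58.7 against 140 CPM and desmoplakin, Dsp, at 72.3 against 153, both of which also join heart muscle cells. The tight junction protein Tjp1 had a ratio of 1.18 (0.888 to 1.53).

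In the retinoic acid list, Aldh1a2, which makes retinoic acid from retinal, stood at 117 against 10.9 CPM, a ratio of 10.8 (6.83 to 16.4) from 26 UMIs. In PD1/PEM members with 5 or more rule genes its 6 UMIs made 76.5 against 10.7 CPM, and in Isotype Control its 4 UMIs made 264 against 10.04. Aldh1a1, a second retinal dehydrogenase, had a ratio of 1.90 (1.55 to 2.29). Of 6 genes measured, Aldh1a2 was the 1 that was 2-fold or more higher, and it passed the minimum only through the members.

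Basement membrane genes separated by collagen IV chain. The chains of the less widespread networks, Col4a3, Col4a4, Col4a5 and Col4a6, had ratios of 3.36 (2.42 to 4.55), 2.89 (2.22 to 3.71), 2.31 (1.62 to 3.21) and 2.29 (1.56 to 3.23). The chains found in most vessels, Col4a1 and Col4a2, had ratios of 0.740 (0.568 to 0.948) and 0.883 (0.680 to 1.13). The laminin receptor subunit Itga3 was the other higher gene, at 54.2 against 14.7 CPM, and Itgb1 stood at 194 against 364. In all 5 of 20 measured genes were 2-fold or more higher and 0 lower, beside 8.54% and 4.65% of all genes, and the list's median log2 ratio was -0.14. Itga3 passed the minimum only through the members. In PD1/PEM members with 5 or more rule genes, Col4a4 stood at 115 against 61.3 CPM and Col4a3 at 25.5 against 26.8, the latter from 2 UMIs.

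Among ligands and receptors, 3 of 30 measured genes were higher and 3 lower, near the 8.54% and 4.65% of all genes. The guidance ligands Sema3c and Sema3d stood at 429 against 54.4 CPM (ratio 7.89, 6.31 to 9.77) and 434 against 59.4 (7.30, 5.85 to 9.02). Their levels in PD1/PEM were 128 against 35.2 and 179 against 32.8. Slit3, a ligand of Robo receptors, stood at 1115 against 429 CPM. The lower genes were the growth factors Igf1 (22.6 against 78.1 CPM), Tgfb1 (22.6 against 86.5) and Vegfa (22.6 against 47.0), each from 5 UMIs. Igf1 went the other way in PD1/PEM members with 5 or more rule genes, where 12 UMIs made 153 against 52.7 CPM, a ratio of 2.91 (1.49 to 5.11). The 3 higher genes of the list in that library, Igf1, Sema3c and Sema3d, passed the minimum only through the members, so they had to differ.

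Genes of epithelial-to-mesenchymal transition did not stand out as a group, with 1 of 17 measured higher, 1 lower and a median log2 ratio of -0.31. Col3a1, a fibrillar collagen, was the higher one, at 492 against 203 CPM, and the matrix protease Mmp2 the lower, at 27.1 against 54.4 from 6 UMIs. The intermediate filament protein vimentin, Vim, stood at 266 against 481 CPM (0.554, 0.421 to 0.715). In the Hippo list 1 of 12 was higher, near the 8.54% of all genes: Crim1, a BMP-binding membrane protein, at 1495 against 392 CPM. The effectors Yap1 and Wwtr1 had ratios of 0.636 (0.304 to 1.17) and 1.04 (0.818 to 1.30). In the complement list C2 was the 1 higher gene of 12, at 45.2 against 10.3 CPM, and passed the minimum only through the members, and Cd59a and Vcam1 were lower, with 4 UMIs (ratio 0.310, 0.0842 to 0.796) and 3 UMIs (0.287, 0.0589 to 0.841).

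MHC and checkpoint genes gave 0 higher and 0 lower of 5 measured, and all 5 measured genes had ratios under 1. B2m, the light chain of MHC class I, stood at 479 against 614 CPM. Cd274, which encodes PD-L1 and fell under the minimum, had 5 UMIs in the 79 cells, 22.6 against 16.6 CPM, a ratio of 1.36 (0.437 to 3.21), so no difference was detectable at this depth. Over all 319 members it stood at 16.6 CPM. Pdcd1, which encodes PD-1, had 0 UMIs in those 79 cells, which hold 221447 UMIs. Of the immediate early and dissociation genes, 1 of 19 measured was higher (Hspb8, 76.8 against 33.8 CPM) and 0 lower, beside 8.54% and 4.65% of all genes. Hspb8 passed the minimum only through the members, and 0 of the 18 other genes measured were higher. Of the cycling genes 0 of 15 reached the minimum.

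**Figure D5:**
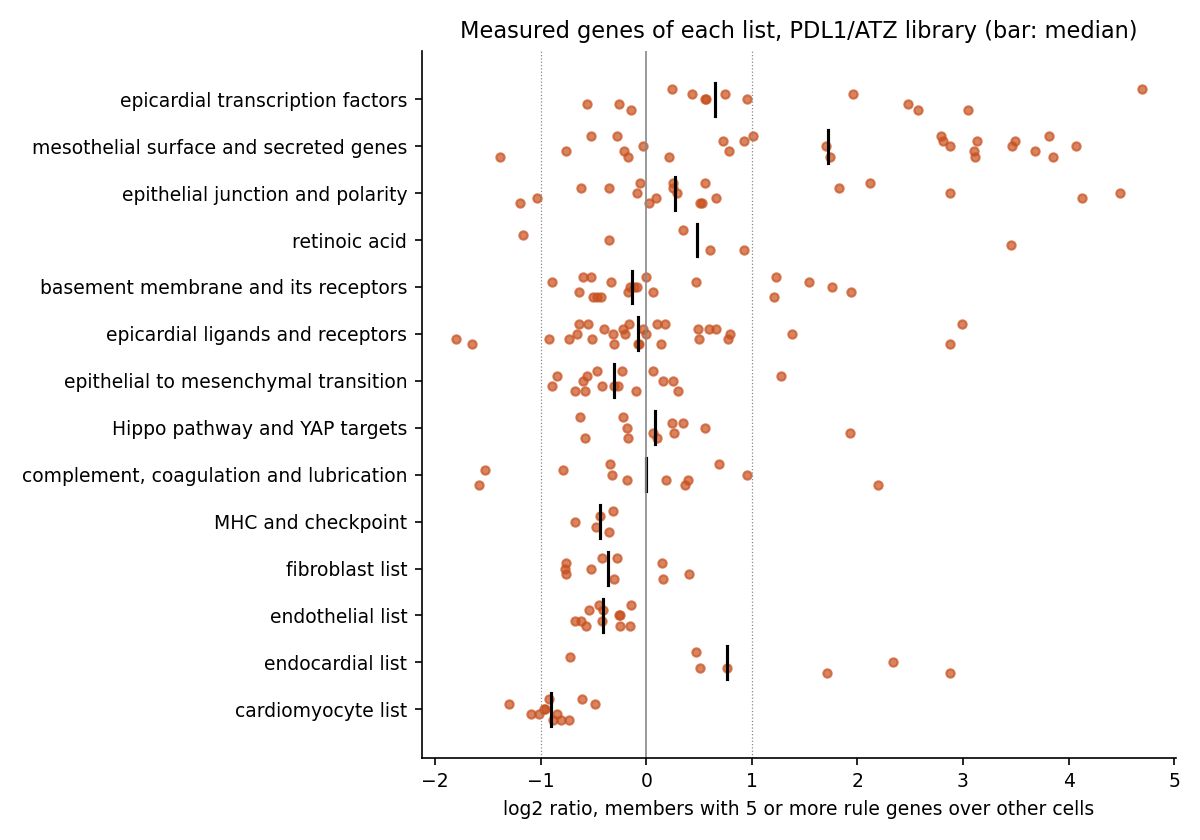
log2 ratio of each measured gene of 14 lists in PDL1/ATZ members with 5 or more rule genes over other cells of that library, with the median of each list as a black bar and 2-fold lines dotted. The mesothelial list has a median of 1.72, the transcription factor list 0.65 and the cardiomyocyte list -0.90. These medians include genes that passed the minimum only through the members: 9 of 26, 2 of 14 and 0 of 12.

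Genes of other cell types were read in the same 79 cells. The endothelial list (12 genes) stood at 3716 against 4842 CPM in other cells, the fibroblast list (12) at 1797 against 2478, the macrophage list (12) at 587 against 774 and the pericyte and smooth muscle list (12) at 1319 against 1760, with 0 genes of each at 0. The cardiomyocyte list (12) stood at 8359 against 15718 CPM, the erythroid list (6) at 5134 against 8398, and 9 of 10 lymphocyte genes were at 0. The glial list (8) stood at 108 against 181 CPM with 4 genes at 0, and the adipocyte list (8) at 99.4 against 98.8 with 7 at 0. Apart from the adipocyte and endocardial lists, each list was thus below its level in other cells. The endocardial list (10) stood higher, at 2664 against 1178 CPM (ratio 2.26, 2.08 to 2.45). Of its 7 measured genes 3 were 2-fold or more higher, beside 8.54% of all genes. They were Tmem108 at 537 against 107, Npr3 at 289 against 89.1, and Cdh11, which was also counted in the junction list above. Gmds, Cgnl1 and Hmcn1 had ratios of 1.69 (1.38 to 2.05), 1.41 (1.06 to 1.84) and 1.38 (1.10 to 1.71), and Vwf, an endothelial gene, 0.579 (0.288 to 1.04). At least 4 genes of the endocardial list were found in 41 of the 79 cells and in 91 of all 319 members, against 3.99% of non-members. At least 4 genes of the endothelial list were found in 62 of the 79 cells and in 53.2% of non-members, at median depths of 2826 and 998 UMIs. The part of free RNA and of doublets in these values was not tested.

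Fibroblast-rule cells, 1696 non-members of PDL1/ATZ with 4 or more of 12 fibroblast genes, were the nearest mesenchymal comparison. Members were 2-fold or more higher at 357 of 9910 genes (3.6%) and lower at 197 (1.99%). Of the 9910 genes, 698 passed the minimum only through the members. The 8 highest, Vtcn1, Kcnd2, Upk1b, Scel, Nkain4, Cdh3, Rbfox1 and Wdr17, were all among the 15 leading genes, with Vtcn1 at 48.4 against 3.42 CPM, a ratio of 14.1. Of the 8 lowest, Dpt, Pcsk6, Tnxb, Lum, Scara5 and Pdgfra belong to the list that chose the fibroblast-rule cells and are no finding. The other two were Lrfn2 and the secreted Wnt inhibitor Wif1, with 3 UMIs in members (ratio 0.185, 0.0373 to 0.563). Against 6005 endothelial-rule cells, chosen the same way, 347 of 9858 genes were 2-fold or more higher (3.52%). Of the 9858 genes, 681 passed the minimum only through the members. The fibroblast rule was permissive: its own list stood at 4192 CPM in fibroblast-rule cells and at 2478 in all non-members.

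A sharper contrast came from cluster 5, which had the highest fibroblast list level (608 non-members, 4685 CPM, led by Meg3, C1qtnf7 and Gfra1). Against these cells the 116 members in cluster 11 had Sulf1 at 2315 and 467 CPM, Plxna4 at 2623 and 364, Sema3d at 441 and 53.2, Tbx18 at 119 and 27.0, and Col3a1 at 510 and 237. Some genes high in the members were as high in cluster 5: Slit3 stood at 1169 and 1046 CPM, Gata4 at 222 and 197 and Aldh1a1 at 494 and 548. Others were lower in the members, with Tbx20 at 166 and 696, the laminin chain Lama2 at 480 and 1517 and Igf1 at 19.9 and 134. Clusters were made from these genes, so the values describe the 2 clusters and test nothing.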

How the data were processed

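Droplet libraries (10x Genomics 3′ chemistry) of dissociated mouse hearts were deposited as 1 matrix of UMI counts per library. Per the submitters' processing notes, the authors used Cell Ranger, Seurat and the mm10 build (versions: not given in the sources used here). Deposited counts are whole and not normalized, over 30415 genes, with 434 to 7072 UMIs, at most 2499 genes and at most 30.0% mitochondrial UMIs per cell.

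All deposited cells were used. Counts were summed over cells and scaled to CPM, by the total UMIs of the same cells. Ratios had exact conditional binomial intervals at 95%; log2 ratios used a pseudocount of 0.5 UMIs. A gene was measured with 10 or more observed or expected UMIs, and called at 2-fold. With 1 library per group no p-value was computed. The genes named were the rule genes, the 15 highest and 6 lowest against other cells and the 8 highest and lowest against fibroblast-rule cells (ranked by the bound of the ratio nearest 1, with at least 30 UMIs where the gene was higher, without gene models and mitochondrial, haemoglobin and sex-linked genes), Cd274, Pdcd1, and members of the 22 gene lists with the most UMIs or largest ratios. A few further list members and Cftr were named after their values were seen. Fibroblast-rule and endothelial-rule cells had 4 or more genes of those lists. The members and lists were chosen with earlier results of these data known.

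PDL1/ATZ cells were clustered without the rule genes (scanpy 1.11.5, leidenalg 0.10.2; 2000 variable genes, 30 components, 15 neighbours, resolution 1). Doublets were kept. The threshold of scrublet marked 1, 0 and 0 cells and was not usable, so the top 0.8% per 1000 cells were marked by rank, which gave 724, 326 and 1076 cells. For equal depth, cells were reduced at random to 700 UMIs each, without the 483, 133 and 413 cells that had fewer. The counting steps were tested on simulated data. Python 3.11.15, numpy 2.4.6, pandas 2.3.3 and scipy 1.17.1 were used. Gene positions are from GENCODE M21 and promoters from RefSeq. Some genes of the lists are not reported here.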

Additional observations from a re-analysis of the deposited data

How the results depend on the processing

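Of 75 values computed, 39 stayed the same, 35 moved and 1 changed sign. The share of cells meeting the rule, in the order Isotype Control, PD1/PEM and PDL1/ATZ, was 5.30%, 13.4% and 8.74% with 2 or more rule genes and 0.179%, 0.720% and 1.10% with 4 or more. It was 0.578%, 1.86% and 1.52% without Dpp4, Gpr39 and Stk26 in the rule, and 0.0886%, 0.256% and 0.787% after thinning. PD1/PEM was thus above PDL1/ATZ with 2 or more rule genes and without Dpp4, Gpr39 and Stk26, and below it with 4 or more and after thinning.

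The 336 higher genes against other cells became 614 with a minimum of 5 UMIs, 209 with 20, 179 without the 269 members that held genes of other cell types, and 110 in members outside the mesothelial cluster. The 179 lower genes became 449, 45, 81 and 103 in the same order. Against fibroblast-rule cells 357 became 691, 196, 165 and 126, and against endothelial-rule cells 347 became 626, 210, 171 and 114. Fewer members leave fewer genes above the minimum. Yet the 336 became 418 with 4 or more and 446 with 5 or more rule genes, which also leave fewer members. The part of member number in the falls was not tested.

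The median log2 ratio of the mesothelial list, 0.97 in all PDL1/ATZ members, was 1.38 with 4 or more rule genes and 1.72 with 5 or more. The 0.97 and 1.72 include 7 and 9 genes that passed the minimum only through the members. The median was 1.10 without the 3 rule genes above, 1.05 without doublets, 1.49 without members with genes of other cell types and 1.02 with no minimum. It was -0.0064, near 0, outside the cluster, a split that the list genes helped to make, and the summed list there was 4300 CPM against 3960 in other cells. The 2.77-fold list level with 5 or more rule genes was 2.60 without the 4 list genes among the 15 leading genes (Ezr, Slc39a8, Upk1b and Nkain4).

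At resolution 0.5 the cluster with the most members was another, of 2966 cells with 130 members, and the mesothelial one held 122 cells, 107 of them members. No paired analysis was possible because each group is 1 library. With 5 and 20 cells of 5 or more rule genes in Isotype Control and PD1/PEM, most single genes there rest on few UMIs.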

Other observations

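The 191 PDL1/ATZ members with exactly 3 rule genes carried 72 different combinations of genes. The commonest were Muc16 with Wt1 and Gpm6a in 18 cells, Wt1 with Gpm6a and Dpp4 in 14, and Muc16 with Gpm6a and Dpp4 in 13. In PD1/PEM 131 such cells carried 60 combinations and in Isotype Control 68 cells carried 43.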
